A study of Drosophila melanogaster with 6 samples.

Results

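This set of 10 genes of Drosophila melanogaster neural stem cells, the neuroblasts, was followed through 6 RNA-seq libraries. It comprised dpn, ase, wor, insc, mira, pros, brat, numb, erm and pnt. They were chosen by name, for their known roles in neuroblast identity and asymmetric division, and matched from the FlyBase identifiers of the deposited count table to symbols. All 10 were among the 14869 genes of that table and among the 10029 genes that had enough counts to be tested. The libraries came from male larvae at the wandering stage of the last instar (L3), kept at 25 °C, and were made from their polyadenylated RNA, with 2 biological replicates in each of 3 groups. The first group was the central brain, taken without the ventral nerve cord from 30 larvae per library. The second was the fat body of 18 larvae per library, here called control fat body. The third was the fat body of 18 larvae per library whose food contained 4-hydroxytamoxifen (4-HT) at 25 µM, the ligand on which the intein of the transgene depends. Brain was collected without 4-HT.

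All 3 groups shared 1 genetic background, an equal mix of 6 fly lines in every library, with 5 larvae per line for brain and 3 per line for fat body. The lines were y,w flies with an M{FL} construct at the site ZH51C, in which hsp70P, the promoter of a heat shock gene, stands before the bacterial adenine methyltransferase gene Dam. In Dam the 4-HT-intein was inserted at L127C, and the 6 lines carried this Dam alone or fused to PC, H1, HP1, MRG15 or BRM. No library came from flies without the transgene. Since larvae were pooled, the spread between the 2 replicates of a group is a spread between pools and not between animals.

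Neuroblasts renew themselves by dividing into a new neuroblast and a smaller daughter that is set on the way to differentiation. Inscuteable sits in an apical complex that orients the spindle, while Miranda carries Prospero and Brat to the basal cortex, from where they pass into the smaller daughter, as Numb does. The transcription factors Deadpan, Asense and Worniu mark the stem cells, and Earmuff and Pointed act in the type II lineages, whose neuroblasts give rise to transit-amplifying intermediate progenitors.

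The libraries held between 20687696 and 65802288 counts. Values are given as CPM, the counts of a gene relative to the library's size after TMM scaling, a method that centres the differences of most genes on 0, and a gene was called at an adjusted p under 0.05 in the edgeR quasi-likelihood test over all 10029 genes. The 7 fat body markers, led by Lsp2 and Lsp1gamma, were lower in brain, where they summed to 373 and 511 CPM, against at least 763577 CPM in every fat body library. Of 10 neuronal markers 9 were higher in brain than in control fat body; Appl, the most abundant of these in brain, had at least 298 CPM there and at most 1.18 CPM in any fat body library. The exception was Syt1, with 80.5 and 109 CPM in brain and 549 CPM or more in fat body. Of 7 glial markers nrv2, repo, wrapper and gcm were higher in brain, Eaat1 was lower, and Gs2 and moody were not called. Further lists were for ring gland (led by the phm row and spok), eye-antennal disc (dac and Optix) and imaginal disc (Dll and vg). Others were for testis (zfh1 and eya), muscle (bt and Act57B) and trachea (the trh row and verm). These lists summed to between 14.2 and 143 CPM in the brain libraries and to between 1.16 and 667 CPM in those of fat body. The rows matched for phm, trh and nos (in the testis list) belong to other genes. In brain replicate 1 the phm row held 38.0 of the 48.5 CPM of the ring gland list, so that sum does not measure ring gland. One fat body library stood apart. Control replicate 1 held 1983 CPM of 7 salivary gland markers, led by Sgs7 and Sgs5, against 2.62 CPM in control replicate 2, and 165 CPM of 6 hemocyte markers, led by Pxn and Hml, against 44.5 CPM. Brain replicate 1 held 69.6 CPM of the salivary gland markers, against 0.718 CPM in brain replicate 2. Without control replicate 1 the 9 genes below that were higher in brain were still called, and without brain replicate 1 likewise.

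**Figure D1:**
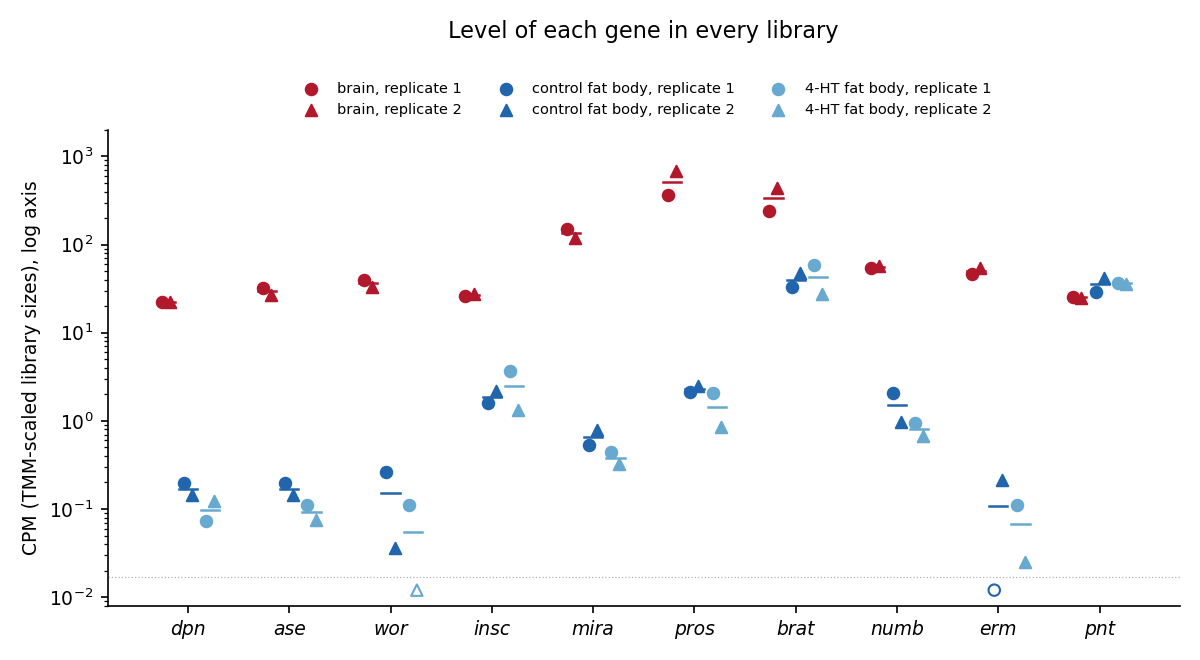
Level of each of the 10 genes in every library, as CPM over TMM-scaled library sizes on a log axis; points are libraries, short bars are group means, and open symbols under the dotted line are libraries without a count. For 9 genes both brain libraries lie above all 4 fat body libraries, and for pnt both lie below them.

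Brain and fat body were compared to learn which of these genes set the organs apart. Of the 10 genes 9 were higher in brain than in control fat body, by between 3.08 and 8.50 on the log2 scale, and only pnt was not called in this test. Among all genes tested, 35.5% were called higher in brain and 34.5% lower, so a call alone was common here. The median log2 fold change was 7.27 over the 10 genes and 0.11 over all 10029. The latter is a signed median that TMM scaling holds near 0, so it does not tell how common large differences were. The 10 neuronal markers had a median of 7.28. The brain and control libraries did not overlap for any of the 10 genes, as was the case for 86.5% of all genes. In whole organs, fewer cells of a type and less RNA per cell cannot be told apart, so none of these differences is one per neuroblast.

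The 3 neuroblast transcription factor genes had clear levels in brain and 7 counts or fewer in each fat body group. For dpn, which encodes a bHLH-O repressor of the Hairy and Enhancer of split type that maintains neuroblast self-renewal, the level was 22.3 and 22.4 CPM in the 2 brain libraries, 0.198 and 0.144 CPM in control fat body and 0.0736 and 0.124 CPM in 4-HT fat body. The brain replicates were nearly equal. dpn was higher in brain by 7.07 ± 0.29 (log2, SE; edgeR adjusted p = 5.23e-06) against control and by 7.73 ± 0.29 (adjusted p = 3.85e-06) against 4-HT fat body. The kit does not mark strand, and 1207 of the 2036 exon bases of dpn are overlapped by an antisense RNA gene, asRNA:CR44275, in the BDGP6 annotation, so reads of the pair cannot be told apart.

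ase encodes a proneural bHLH protein of the achaete-scute family, present in type I neuroblasts and absent from type II. Its level was 31.9 and 27.0 CPM in brain, 0.198 and 0.144 CPM in control fat body and 0.110 and 0.0742 CPM in 4-HT fat body. The difference was 7.47 ± 0.29 (edgeR adjusted p = 4.51e-06) against control and 8.32 ± 0.29 (adjusted p = 3.67e-06) against 4-HT. All 4 fat body libraries held 4 counts or fewer.

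For wor, a zinc finger gene of the Snail family that keeps neuroblasts in division, brain held 39.9 and 32.8 CPM, control fat body 0.264 and 0.0359 CPM, and 4-HT fat body 0.110 CPM in replicate 1 and no count in replicate 2. Brain was higher by 8.21 ± 0.68 (edgeR adjusted p = 6.97e-05) against control fat body and by 9.56 ± 0.72 (adjusted p = 4.32e-05) against 4-HT. With only 5 control and 3 4-HT counts the size of the fold is loose: the ratio of pooled levels was 308 against control (95% counting interval 132 to 949) and 807 against 4-HT (276 to 3914), which covers counting error only. The fitted log2 difference against control was 9.91 without control replicate 1 and 7.11 without control replicate 2, and that against 4-HT was 8.36 without 4-HT replicate 2 and 13.7 without 4-HT replicate 1, where no fat body count is left and the value depends on the prior count.

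The 2 cortical adaptors differed in how far fat body fell below brain. mira, whose coiled-coil product tethers Prospero and Brat at the basal cortex, reached 151 and 118 CPM in brain. It stayed at 0.528 and 0.790 CPM in the control libraries and at 0.441 and 0.322 CPM in those with 4-HT. This was a difference of 7.62 ± 0.30 (edgeR adjusted p = 5.00e-06) against control and of 8.48 ± 0.31 (adjusted p = 3.82e-06) against 4-HT. insc, the apical partner that links the Par complex to the spindle machinery, held 25.8 and 27.5 CPM in brain, 1.58 and 2.19 CPM in control fat body, and 3.68 and 1.34 CPM in 4-HT fat body. Both brain libraries were still well above all fat body libraries, by 3.79 ± 0.47 (adjusted p = 0.000461) against control and 3.43 ± 0.45 (adjusted p = 0.000583) against 4-HT. The difference against 4-HT was 4.31 without 4-HT replicate 1, the higher of that pair. Mean control fat body level was 7.09% of the brain mean for insc and 0.489% for mira. The exons of insc share 359 of 3887 bases with sktl on the same strand, and how reads there were assigned is not given in the sources used here.

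The 3 segregated determinants differed from control fat body by 7.80 (pros), 5.27 (numb) and 3.08 (brat) on the log2 scale. pros encodes the homeodomain protein that ends self-renewal in the daughter cell and is also present in neurons. It had 361 and 676 CPM in brain, 2.11 and 2.51 CPM in control fat body and 2.06 and 0.841 CPM in 4-HT fat body. Brain was higher by 7.80 ± 0.59 (edgeR adjusted p = 4.64e-05) against control and by 8.52 ± 0.60 (adjusted p = 3.31e-05) against 4-HT, the latter being 9.26 without 4-HT replicate 1.

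brat encodes a TRIM-NHL protein that represses translation in the daughter cell and acts in many tissues. Its level was 237 and 442 CPM in brain, 32.6 and 47.4 CPM in control fat body and 59.3 and 27.3 CPM in 4-HT fat body. Fat body thus held a measurable amount of brat, with 1816 counts in the control pair and 2713 in the 4-HT pair, and its control level was 11.8% of that in brain. The difference was 3.08 ± 0.49 (edgeR adjusted p = 0.00142) against control and 2.97 ± 0.49 (adjusted p = 0.00157) against 4-HT, where it was 3.63 without 4-HT replicate 1. numb, whose product inhibits Notch in the daughter that inherits it, stood at 53.8 and 57.0 CPM in brain, 2.05 and 0.969 CPM in control and 0.956 and 0.668 CPM in 4-HT fat body. It was higher in brain by 5.27 ± 0.36 (adjusted p = 3.16e-05) against control and by 6.11 ± 0.37 (adjusted p = 1.84e-05) against 4-HT, and the value against control was 5.86 without control replicate 1.

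pros and brat had by far the widest spread in brain: replicate 2 was 1.87-fold and 1.86-fold above replicate 1, while no other of the 10 genes differed by more than 1.28-fold. They are also the 2 longest genes of the set, with joined exons of 24.9 and 12.8 kb. Among all genes with at least 10 CPM in brain, the ratio of replicate 2 to replicate 1 went up with exon length, from a median log2 of -0.31 for 279 genes of up to 1 kb to 0.43 for 79 genes over 12 kb. The curve through all genes gave 1.39-fold at the length of pros and 1.23-fold at that of brat, so both lay above it. Control fat body showed the same order, with medians of -0.33 and 0.62 in those length classes. In 4-HT fat body the order was the opposite one, with medians of 0.23 and -0.52, and brat was there 2.17-fold higher in replicate 1. When this trend was taken out within each group, an alternative added after the trend was seen, the difference from control fat body was 7.79 ± 0.35 for pros (edgeR adjusted p = 1.89e-05) and 3.07 ± 0.30 for brat (adjusted p = 0.000297). The correction removes spread between replicates by its construction, so the smaller SEs are not a gain in precision. It also works within each group, so it could hardly move the differences between groups.

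**Figure D2:**
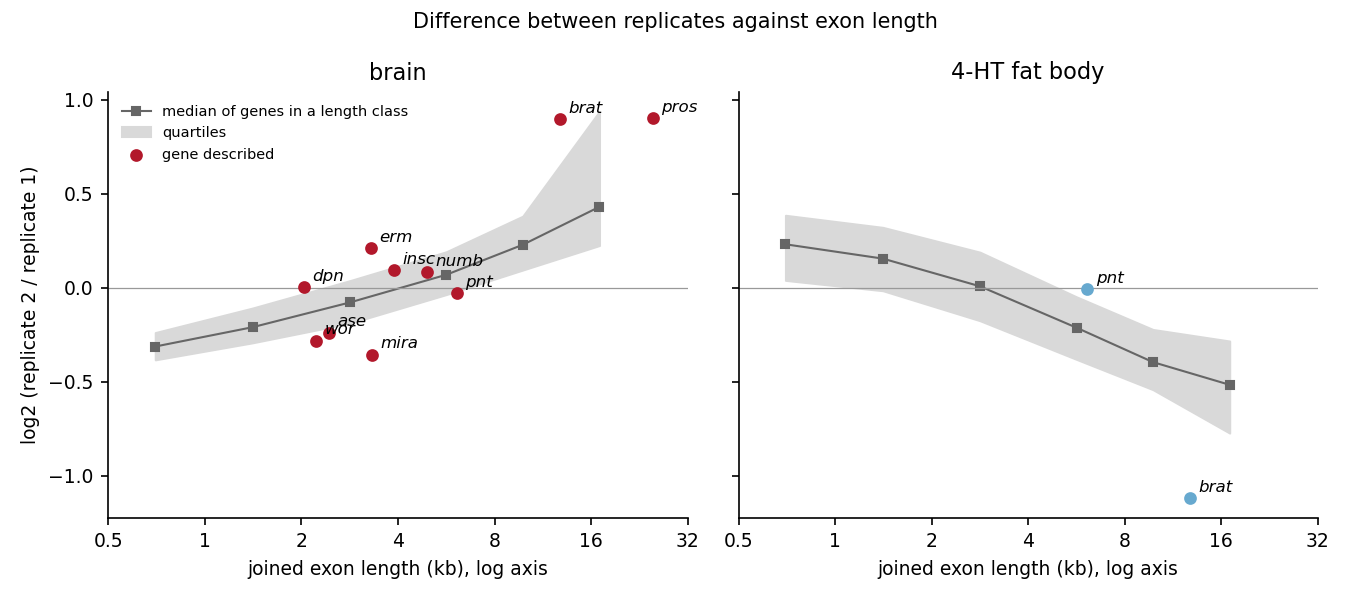
Log2 ratio of replicate 2 to replicate 1 against joined exon length in kb (log axis), in brain and in 4-HT fat body; squares are medians of all genes with at least 10 CPM in a length class, drawn at the middle of the class, shading spans their quartiles, and coloured points are those of the 10 genes with a mean of at least 10 CPM. pros and brat, at 24.9 and 12.8 kb, lie at 0.90 and 0.90 in brain, above the other 8 genes, and brat lies at -1.12 in 4-HT fat body.

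Of the 2 genes of intermediate progenitors, erm was higher in brain and pnt was not. erm, a zinc finger gene of the FezF type that keeps intermediate progenitors from turning back into neuroblasts, had 46.5 and 53.9 CPM in brain. In control fat body it had no count in replicate 1 and 0.215 CPM in replicate 2, and in 4-HT fat body 0.110 and 0.0247 CPM. The fitted difference was 8.50 ± 0.57 (edgeR adjusted p = 2.90e-05) against control and 9.64 ± 0.60 (adjusted p = 1.98e-05) against 4-HT. The ratio of pooled levels was 364 (95% counting interval 167 to 992) over 6 control counts and 858 (335 to 3150) over 4 counts with 4-HT. Single fat body libraries moved the fitted value: it was 7.87 without control replicate 1, 14.1 without control replicate 2, where no count is left, and, against 4-HT, 10.8 without replicate 1 and 8.82 without replicate 2.

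pnt encodes an ETS transcription factor at the end of the EGFR and Ras pathway that is present in type II neuroblasts and in many other tissues. It was the only gene of the 10 that was not higher in brain, with 25.6 and 25.1 CPM there, 29.3 and 41.7 CPM in control fat body, and 36.4 and 36.2 CPM in 4-HT fat body. All 4 fat body libraries lay above both brain libraries, by a margin that was small in control replicate 1. Against control fat body the difference was -0.49 ± 0.20 (edgeR adjusted p = 0.0608), which did not pass, and against 4-HT it was -0.52 ± 0.19 (adjusted p = 0.0483), which did, beside 35.7% of all genes that were called lower in brain. The direction rests on the scaling: with library size as the only scaling, which moved the median of all genes up by 2.38 on the log2 scale in brain against control, pnt was 1.91 higher in brain. That is below the median of 2.49 of all genes under the same scaling. A change of scaling moves all genes by about the same amount, so the place of pnt below the median gene could hardly change. It adds nothing on the direction. The call of pnt depends on the setting: it was made without control replicate 1 (-0.69) and lost against 4-HT without either brain or either 4-HT library. In the authors' deposited table the fold of pnt, brain over control fat body, was 0.734 with an adjusted p of 0.332.

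**Figure D3:**
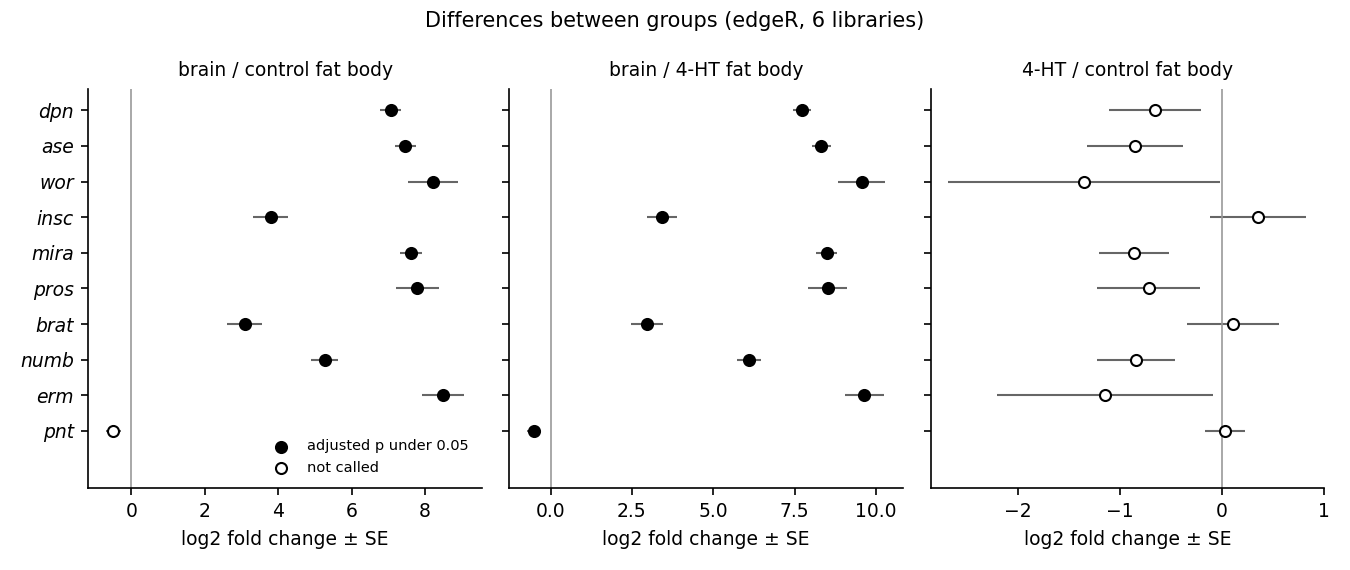
Log2 fold change with its SE (edgeR, 6 libraries, n = 2 per group) for the 3 comparisons; filled points passed an adjusted p of 0.05 and open points did not, and the 3 panels have their own x axes. The 9 genes higher in brain lie between 2.97 and 9.64 in both tissue comparisons, pnt lies near -0.5, and no gene was called with 4-HT.

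The second tissue comparison shares the brain libraries with the first and gave the 9 genes between 2.97 and 9.64 above 4-HT fat body, where 37.0% of all genes were called higher in brain. The median log2 difference of the 10 genes was 8.02, beside 0.14 over all genes.

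Compared per kilobase of joined exon, the order of mean levels in brain was mira (40.5 CPM per kb), brat (26.5), pros (20.8), wor (16.4), erm (15.3), ase (12.1), numb (11.3), dpn (11.0), insc (6.85) and pnt (4.14). mira was above brat in both libraries. The ranges of the neighbours brat, pros, wor and erm overlapped one with the next, as did those of ase, numb and dpn. Within each library, though, brat was above pros, whereas pros and wor, wor and erm, ase and numb, and numb and dpn changed places between the 2 libraries. insc and pnt were each below the next higher gene in both libraries. The order depends on the length used, because much of pros and brat is untranslated: per kilobase of coding length brat (106 CPM per kb) and pros (92.7) came before mira (54.1), and 4 of the 10 genes kept their rank. In control fat body pnt (5.80 CPM per joined exon kb) and brat (3.13) stood above all others, none of which passed 0.485, and erm was the lowest at 0.0327.

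The fat body levels can be set beside markers of cells that a fat body dissection could carry along. Control fat body held dpn at 0.763%, ase at 0.579%, wor at 0.413%, mira at 0.489%, pros at 0.446% and erm at 0.214% of their brain means. The neuronal markers nSyb, VGlut, Appl, fne, brp and elav were at 0.107%, 0.212%, 0.306%, 0.391%, 0.491% and 0.825%, and ChAT, nrv3 and Rdl at 1.31%, 2.76% and 3.37%. The glial markers wrapper, gcm and repo were at 0.578%, 0.589% and 0.896%, and nrv2, moody, Gs2 and Eaat1 at 28.6%, 114%, 141% and 380%. Of the 10 neuron markers 6 were under 1 CPM in both control libraries, of the 7 glia markers 3 were. The summed level of the neuron list ranged from 556 to 696 CPM over the fat body libraries, with 1108 and 1341 CPM in brain, but Syt1 alone made up 549 to 687 CPM of it in fat body. The glia list summed to 428 to 637 CPM over the fat body libraries, with 340 and 418 CPM in brain, most of it from Eaat1 and Gs2 in fat body. The part of brain RNA in the low fat body values was not tested. numb at 2.72% lay among the upper neuronal shares, while insc at 7.09%, brat at 11.8% and pnt at 140% lay above all of them but that of Syt1.

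**Figure D4:**
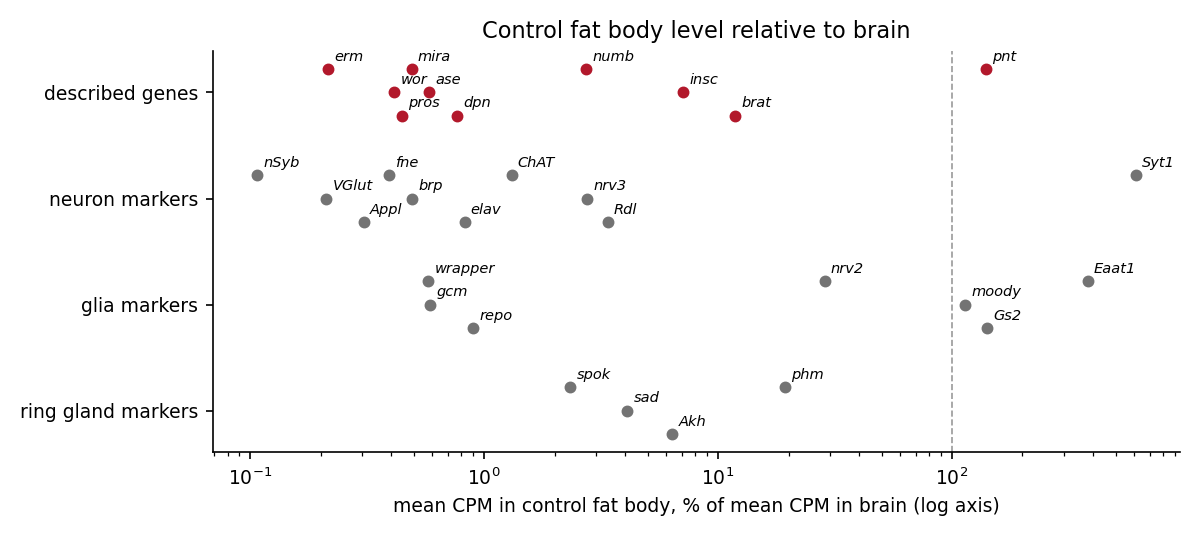
Mean CPM in control fat body as a percent of the mean in brain (log axis) for the 10 genes and for marker genes of neurons, glia and ring gland; each point is a gene, the dashed line marks equal levels, and a marker without a count in control fat body is not drawn. Of the 10 genes 6 lie between 0.214% and 0.763%, among the neuronal markers from nSyb to elav, and brat and pnt lie at 11.8% and 140%. The point labelled phm belongs to another gene and is not a ring gland marker.

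Whether feeding 4-HT altered these genes in fat body was the third question, and no difference was called. None of the 10 passed in the edgeR test, beside 0.0% of all genes. At an unadjusted p under 0.05 the test gave mira alone among these genes (edgeR adjusted p = 0.835) and 596 of the 10029 genes tested. DESeq2 called 0 of the 10 and 43 of all genes, with 1 of these genes under an unadjusted 0.05. The control and 4-HT libraries did not overlap for dpn, ase, mira, pros and numb, all lower with 4-HT. Over all genes this happened in that direction for 14.6% and in either direction for 30.0%. Some gaps were narrow. The lower control and the higher 4-HT library had 0.969 and 0.956 CPM for numb, 2.11 and 2.06 CPM for pros, and 0.144 and 0.124 CPM for dpn. Without TMM scaling numb did overlap, at 0.530 CPM in control replicate 2 and 0.553 CPM in 4-HT replicate 1. This comparison shares the control libraries with the first one. For mira the log2 difference was -0.86 ± 0.34. For dpn, ase, wor and erm each group held 7 counts or fewer, and the fitted differences were -0.66 ± 0.45, -0.86 ± 0.47, -1.35 ± 1.34 and -1.15 ± 1.06. For brat and pnt, which had at least 1605 counts in each group, the estimates were 0.11 ± 0.46 and 0.03 ± 0.19. The signs of wor, insc, brat, erm and pnt turned when single libraries were left out.

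Other genes of the same processes were taken from lists by function. Of 13 further transcription factors of neuroblasts 12 were higher in brain than in control fat body, beside 35.5% of all genes. None was lower, and only ac, at 0.161 CPM or less, was not called. Their median log2 difference was 7.44, or 6.84 with the 2 genes without a control count set at their bounds, beside 0.11 over all genes. l(1)sc, a proneural gene, had 3.56 and 3.15 CPM in brain and no count in control fat body, at least 47.7-fold higher over a floor of 3 counts per group. sc, its neighbour in the same complex, had 1.21 and 1.05 CPM against no count, at least 16.03-fold higher. Of 11 genes that regulate type II lineages 10 were higher, beside the same 35.5% of all genes, with a median of 3.56. The gene tll is counted in both lists. opa, a pair-rule zinc finger gene used in intermediate progenitors, had 26.9 and 33.7 CPM in brain and at most 0.251 CPM in control fat body, a difference of 7.56 ± 0.55 (edgeR adjusted p = 4.01e-05) that was 6.93 without control replicate 1 and rests on no count at all without control replicate 2. tll, an orphan nuclear receptor gene of neural progenitors, had 25.1 and 24.6 CPM in brain and 0.198 and 0.215 CPM in control fat body, or 6.88 ± 0.44 (adjusted p = 2.32e-05). Only fru of this list was not called.

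Of 16 apical polarity and spindle orientation genes, which serve epithelia and other cells too, 5 were higher in brain (baz, pins, mud, Galphai and Gbeta13F), 5 were lower (par-6, Cdc42, loco, Dap160 and Rap1) and 6 were not called, with a median of 0.22. Both counts are near the shares over all genes, 35.5% higher and 34.5% lower, and the median over all genes was 0.11. mud, the NuMA homolog that anchors the spindle, had the largest difference: 62.7 and 65.9 CPM in brain and 2.84 and 0.646 CPM in control fat body, or 5.32 ± 0.65 (edgeR adjusted p = 0.000419). baz, the Par-3 homolog that recruits Inscuteable, had 32.9 and 32.7 CPM against 3.30 and 3.45 CPM, or 3.28 ± 0.29 (adjusted p = 8.93e-05). Of 13 rows matched for genes of basal cargo and mitotic control 9 were higher, 1 was lower (sqh) and 3 were not called. Their median was 1.64, and the shares over all genes are those given above. Among the 9 is the row matched for zip, which belongs to another gene. pon, the adaptor of Numb, had 37.9 and 30.9 CPM in brain and 0.528 and 0.144 CPM in control fat body, or 6.87 ± 0.56 (adjusted p = 6.43e-05). polo, the mitotic kinase that phosphorylates Pon, had 102 and 84.0 CPM against 3.76 and 1.04 CPM, or 5.36 ± 0.75 (adjusted p = 0.000803). Control fat body replicates set the size of several of these folds: without control replicate 1 the log2 difference was 6.66 for mud, 7.91 for pon and 6.51 for polo, and without control replicate 2 it was 4.51, 6.03 and 4.64. The 5 lower calls of the apical list fell to 2 without brain replicate 1 or control replicate 2 and to 1 without brain replicate 2, and sqh was lost without either brain library or control replicate 1. Scaling bears on these lower calls too: with library size as the only scaling, under which 86.5% of all calls were higher in brain in place of 50.7%, 0 genes of the apical list and 0 of the basal list were lower.

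**Figure D5:**
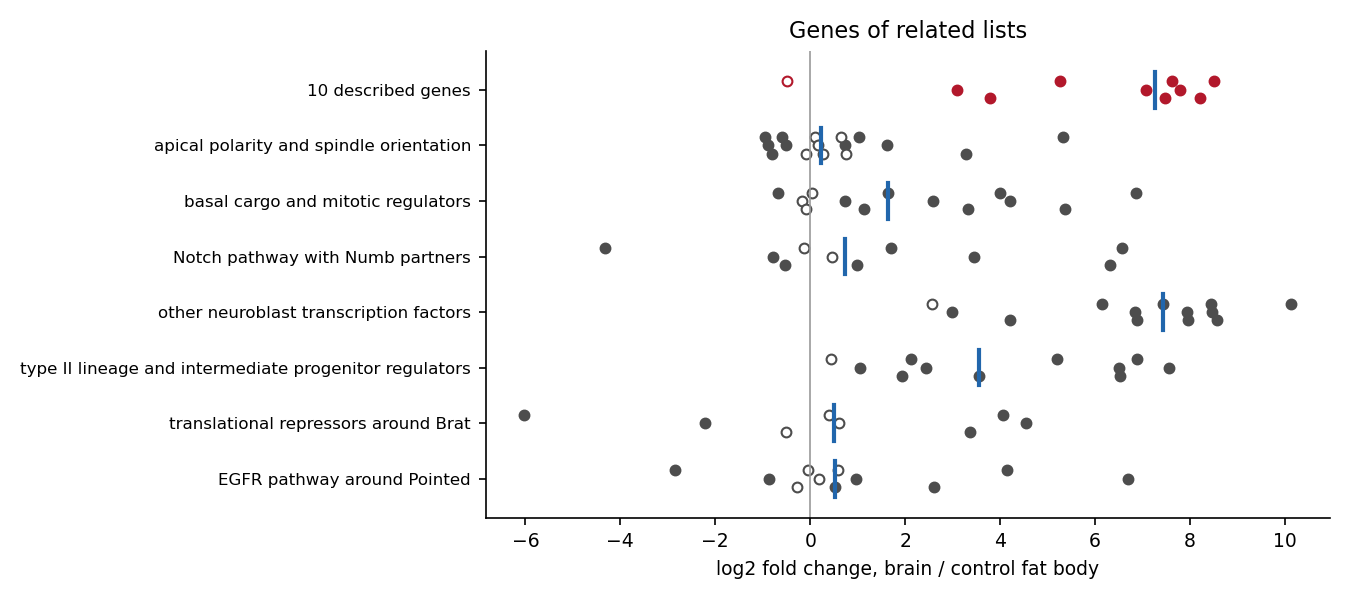
Log2 fold change, brain over control fat body, of each tested gene in the 10-gene set and in 7 lists of related function (edgeR); filled points passed an adjusted p of 0.05, open points did not, and blue bars are list medians. Medians are 7.27 for the set, 7.44 for other neuroblast transcription factors and 0.22 for apical polarity genes. The values of l(1)sc and sc, which have no control count, depend on the prior count. The points and list medians include the rows matched for Dl, Imp, nos and zip, which belong to other genes.

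Around Numb, 5 of 10 rows matched for Notch pathway genes were higher in brain (N, spdo, Su(H), mam and neur). Another 3 were lower (Nak, nct and the row matched for Dl) and 2 were not called, beside 35.5% of all genes higher and 34.5% lower. spdo, the membrane protein that Numb removes from the surface, had 32.5 and 34.6 CPM in brain and 0.396 and 0.323 CPM in control fat body, or 6.56 ± 0.23 (edgeR adjusted p = 4.08e-06). The receptor gene N had 144 and 153 CPM against 2.90 and 1.00 CPM, or 6.32 ± 0.72 (adjusted p = 0.000299). The row matched for the ligand gene Dl belongs to another gene, so no value of the ligand gene is given here. The value for N was 7.23 without control replicate 1 and 5.69 without control replicate 2. Nak and nct lost their lower calls without either brain library or control replicate 2, and with library size as the only scaling.

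Around Brat, 3 of 8 rows matched for genes of translational repression were higher in brain, 2 were lower and 3 were not called. These shares are near or below those over all genes (35.5% higher, 34.5% lower). Of the listed genes themselves pum and wech were higher and lin-28 was lower. The rows matched for nos (higher) and Imp (lower) belong to other genes. pum, whose RNA-binding product works together with Brat, is among the higher ones. lin-28, an RNA-binding regulator of let-7 in other animals, was close to absent from brain at 0.0336 and 0.0247 CPM, while control fat body held 1.78 and 2.33 CPM, or -6.03 ± 0.84 (edgeR adjusted p = 0.000771). Of the TRIM-NHL paralogs, wech was higher in brain, with 79.6 and 99.6 CPM there and 2.57 and 4.95 CPM in control fat body, or 4.54 ± 0.34 (adjusted p = 4.83e-05), and by 5.13 without control replicate 2. mei-P26 was not called, at 10.3 and 32.02 CPM in brain and 6.60 and 20.8 CPM in control fat body, where the replicates of each group lay further apart than the groups.

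Around Pointed, 5 of 11 EGFR pathway genes were higher in brain (rho, S, aop, aos and Ras85D), 2 were lower (Egfr and phl) and 4 were not called, beside 35.5% of all genes higher and 34.5% lower. rho, the protease that releases EGFR ligands, had 14.1 and 15.2 CPM in brain and 0.132 and 0.144 CPM in control fat body, or 6.69 ± 0.30 (edgeR adjusted p = 6.69e-06). aos, which encodes a secreted inhibitor of the pathway and is a known target of it, had 14.1 and 14.8 CPM against 0.330 and 1.18 CPM, or 4.13 ± 0.96 (adjusted p = 0.00791). The call of aos was lost without control replicate 1 (3.63, adjusted p = 0.114) and without control replicate 2 (5.45, adjusted p = 0.0640). The 5 higher calls of the list fell to 2 without control replicate 1 and to 3 without either brain library, and the 2 lower calls to 1 without either brain library. The other ETS genes fell on both sides. Ets65A had 56.8 and 54.0 CPM in brain and 0.198 and 0.251 CPM in control fat body, a difference of 7.89 ± 0.35. Ets98B, at 0.0336 and 0.0990 CPM in brain and 32.7 and 46.0 CPM in control fat body, differed by -9.07 ± 0.40, and by -9.99 without brain replicate 2. Eip74EF, an ecdysone-induced gene, had 51.2 and 71.5 CPM in brain and was higher in control fat body at 195 and 277 CPM. aop, the repressor that competes with Pointed for its sites, was called higher in brain, at 47.1 and 51.6 CPM beside 19.7 and 30.3 CPM, by 0.97, a call lost without either brain library or control replicate 1. Ets21C, Ets96B and Ets97D were higher too, by 2.24, 3.16 and 0.55, none of them above 8.36 CPM in any library. Ets21C lost its call without either brain library, and Ets97D whichever of the 4 libraries compared was left out.

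In the achaete-scute family ac stayed at 0.134 and 0.161 CPM in brain, with 1 count in the control pair and none in the 4-HT pair, where ase, l(1)sc and sc had the values given above. Within the Snail family sna had 16.9 and 17.4 CPM in brain and 2 counts in the control pair, and scrt, a pan-neural gene, had 28.6 and 63.7 CPM beside 0.132 and 0.574 CPM. Both were higher in brain, by 8.45 ± 0.46 (edgeR adjusted p = 1.32e-05) and 6.84 ± 0.63 (adjusted p = 0.00011). The value of scrt was 6.24 without brain replicate 2 and 8.43 without control replicate 2, and sna has no control count without control replicate 2. Its ratio of pooled levels over those 2 counts was 369 (95% counting interval 102 to 3052).

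Against 4-HT fat body these lists gave 13 of 13 other transcription factors higher, 11 of 11 type II regulators, 4 apical genes higher and 5 lower, 8 basal genes higher and 1 lower, 4 Notch genes higher and 3 lower, 4 genes around Brat higher and 2 lower, and 4 EGFR genes higher and 2 lower, beside 37.0% of all genes higher and 35.7% lower. These counts and the following ones include the rows matched for Dl, Imp, nos and zip, which belong to other genes. Between 4-HT and control fat body 0 of the 81 matched genes in the 7 lists were called by edgeR or by DESeq2. At an unadjusted p under 0.05 edgeR gave 4 of them and DESeq2 gave 2.

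To see which genes varied most like each of the 10, profiles of log2 CPM over the 6 libraries were centred on their mean and compared by Euclidean distance, as a description. The nearest gene was Tusp for dpn (distance 0.38), gogo for ase (0.39), NimA for wor (0.36), Pkc53E for insc (0.35), danr for mira (0.31), CG31140 for pros (0.64), Elo68beta for brat (0.34), CycA for numb (0.39), Eaat2 for erm (0.46) and Atg13 for pnt (0.09). Centring takes out the level of a gene. Elo68beta had means of 0.560 CPM in brain and 0.0179 CPM in control fat body, beside 339 and 40.0 CPM for brat. So low a profile depends on the prior count of 2, and so does its nearness to brat. Among the 10 themselves dpn and ase were each other's nearest, at 0.80, with 20 other genes nearer to dpn and 39 nearer to ase out of 10028. pnt was the farthest, 4.18 from brat, with 7553 genes nearer. The genes named depend on the measure: without centring, 5 of the 30 nearest genes, 3 for each of the 10, were shared.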

How the data were processed

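Gene counts were deposited as whole numbers per FlyBase gene, unscaled. The authors' deposited comparison tables hold, per the file headers, a signal per group (mean of counts over size factors), a ratio (fold change over control fat body), its log2 value, and p-values, raw and adjusted. Per the submitters' processing notes, the tools were TopHat, HTSeq and DESeq (no versions) and the build was dm3. Annotation, counting mode and strand setting were not given in the sources used here. Symbols, exon and coding lengths and overlaps came from Ensembl's BDGP6 annotation, another build, so no coordinates are printed.

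Counts were filtered by filterByExpr, scaled by TMM and fitted with edgeR 4.0.16 in R 4.3.3 (robust estimateDisp, glmQLFit and glmQLFTest) on the 6 libraries together, with no term but group, leaving 3 residual degrees of freedom. Adjusted p is Benjamini-Hochberg over 10029 genes. SE is the log2 fold change over the root of the F statistic, an approximation. The fit was also run on simulated counts in which most genes had equal means in all groups, unlike these tissues. No result here rests on that run. Replicates are biological, per the labels. Likeness was computed on log2 CPM (prior count 2). DESeq2 1.42.0, other scalings, no filter, the other glmQLFit method, a replicate block, 4-library fits, a stricter threshold, fits without single libraries and a length correction were alternatives.

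The 10 genes and the lists were chosen with earlier results of these data known. In each list of function the 2 called genes with the largest difference and at least 1 CPM were named, in each paralog family every gene, and in each marker list the 2 most abundant. Other genes were named after their values were seen. 19 listed genes found no match and were not analysed here. The rows matched for Dl, Imp, nos, zip, phm and trh belong to other genes, so these listed genes were not analysed either.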

Additional observations from a re-analysis of the deposited data

How the results depend on the processing

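The 9 genes higher in brain kept that call against both fat body groups in all 16 alternatives, and 0 of the 10 were called with 4-HT in any. pnt was the exception. Against control it was 1.91 with library size only, and was called at -0.47 with the length correction (edgeR adjusted p = 0.0244, an alternative chosen after seeing the data). Against 4-HT fat body it was 1.80 with library size only, and not called with RLE (adjusted p = 0.0641), upper quartile scaling (0.532), no filter (0.136), DESeq2 (0.138) or the stricter threshold. Leaving out single libraries gave pnt a log2 difference of -0.69 to -0.20 against control and -0.51 to -0.44 against 4-HT.

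For 4-HT against control, signs turned when single libraries were left out: wor spanned -5.44 to 0.31, insc -0.52 to 0.93, brat -0.55 to 0.56, erm -2.34 to 4.48 and pnt -0.20 to 0.32, and pnt was -0.0201 with upper quartile scaling. Over all genes this comparison had 0 calls, against 43 with DESeq2, 2 without the filter and 0 to 38 without single libraries. With only its 4 libraries dpn, ase, wor and erm were filtered out.

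With the replicate number as a replicate block, the fit called 6658 genes in place of 7018 in brain against control, 6862 in place of 7289 against 4-HT and 0 with 4-HT, and pnt lost its call against 4-HT (-0.52, adjusted p = 0.0673). Same-numbered libraries correlated at 0.19 for brain with control, -0.09 for brain with 4-HT and -0.14 between the fat body groups, not all of them above 0, and the numbers were not taken to pair the libraries. The fat body values of dpn, ase, wor and erm rest on 3 to 7 counts per group.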

Other observations

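Of Imp and Syp, the RNA-binding proteins that neuroblasts use in opposite gradients over larval time, only Syp has values here. The row matched for Imp, with 0.752 kb of joined exons, belongs to another gene. Syp had 162 and 273 CPM in brain, and was not called against control fat body, where the replicates stood at 111 and 505 CPM. In 4-HT fat body Syp was at 464 and 151 CPM, the reverse order of replicates.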
